A study of Mus musculus with 12 samples.

Results

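The 45 genes described here encode the subunits of the mouse receptors for glutamate and for gamma-aminobutyric acid (GABA). A rule on the gene symbol picked them out of 54547 genes in the deposited table. Of these members, 24 belong to glutamate receptors (4 AMPA, 5 kainate, 7 NMDA and 8 metabotropic subunits) and 21 to GABA receptors (GABA-A subunits alpha, beta, gamma, delta, epsilon, pi, theta and rho, and the 2 GABA-B subunits). The libraries, 3 in each of 4 groups, were made from RNA of sorted mouse brain cells. All mice were of a mixed 129;C57BL/6 background and carried Msi1-CreER, a Cre recombinase that is active only after induction and is driven by Msi1, a gene of neural stem and progenitor cells that is also known in astroglia. Control GFP+ cells and control CD11b+ phagocytes were taken from the cerebellum of mice whose second allele was GFP. RasV12 GFP+ cells and RasV12 CD11b+ phagocytes were taken from tumors of mice whose second allele was RasV12, an oncogenic form of Ras. Genotype and tissue of origin therefore change together and cannot be told apart. The sources used here do not give what drives GFP in RasV12 mice, ages, the time after induction, sort gates or cell numbers.

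Glutamate opens AMPA, kainate and NMDA receptor channels, which excite a cell, while metabotropic glutamate receptors act through G proteins. GABA opens GABA-A receptor chloride channels, built from several subunits around a central pore, and GABA-B receptors signal through G proteins. In the cerebellum, granule cells are known for the GABA-A subunits alpha 6 and delta, the NMDA subunit encoded by Grin2c and the receptor encoded by Grm4, and Bergmann glia for AMPA receptors made largely of the subunits of Gria1 and Gria4.

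Levels are given as the deposited normalized counts of single libraries, in the order of replicates 1, 2 and 3. Where genes are compared with each other, levels are given as FPKM (fragments per kilobase of transcript, scaled for depth). The deposited FPKM of a gene kept a fixed ratio to its normalized counts across libraries. The median coefficient of variation of this ratio was 0.04% over 165 genes with high values, so both share the same scaling of libraries. A member was called higher or lower where limma gave an adjusted p under 0.05 in a fit over 29835 genes. Fold changes are log2 values ± SE on the log2(normalized count + 1) scale, which understates the change of low genes. The labels do not name separate animals for the replicates, so p-values measure the spread between libraries. In bulk samples, fewer cells of a type and less RNA per cell cannot be told apart.

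Recovered reads came to between 18519240 and 34432725 in the 6 GFP+ libraries, and to between 7883870 and 34601205 in control CD11b+ libraries. RasV12 CD11b+ libraries held 3642570, 2951629 and 23589310 reads, and a single read in the first and second was worth 4.46 and 5.54 normalized counts. The 1457 olfactory and vomeronasal receptor genes, which brain cells are not known for, were used as a measure of unspecific signal. Their normalized count per kb of exon was 0.856, 1.35 and 1.99 in control GFP+ and 3.32, 2.37 and 1.83 in RasV12 GFP+ libraries. It was 4.60, 37.4 and 4.70 in control CD11b+ and 78.0, 90.5 and 58.3 in RasV12 CD11b+ libraries. The summed FPKM of 9 phagocyte markers was 4373 to 11213 in control CD11b+ libraries, 1241 to 2416 in RasV12 CD11b+ libraries and 4.3 to 44.2 in GFP+ libraries. All 9 markers were higher in CD11b+ than in GFP+ cells of either genotype. Itgam, the gene of CD11b itself, had no read in control GFP+ libraries.

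**Figure D1:**
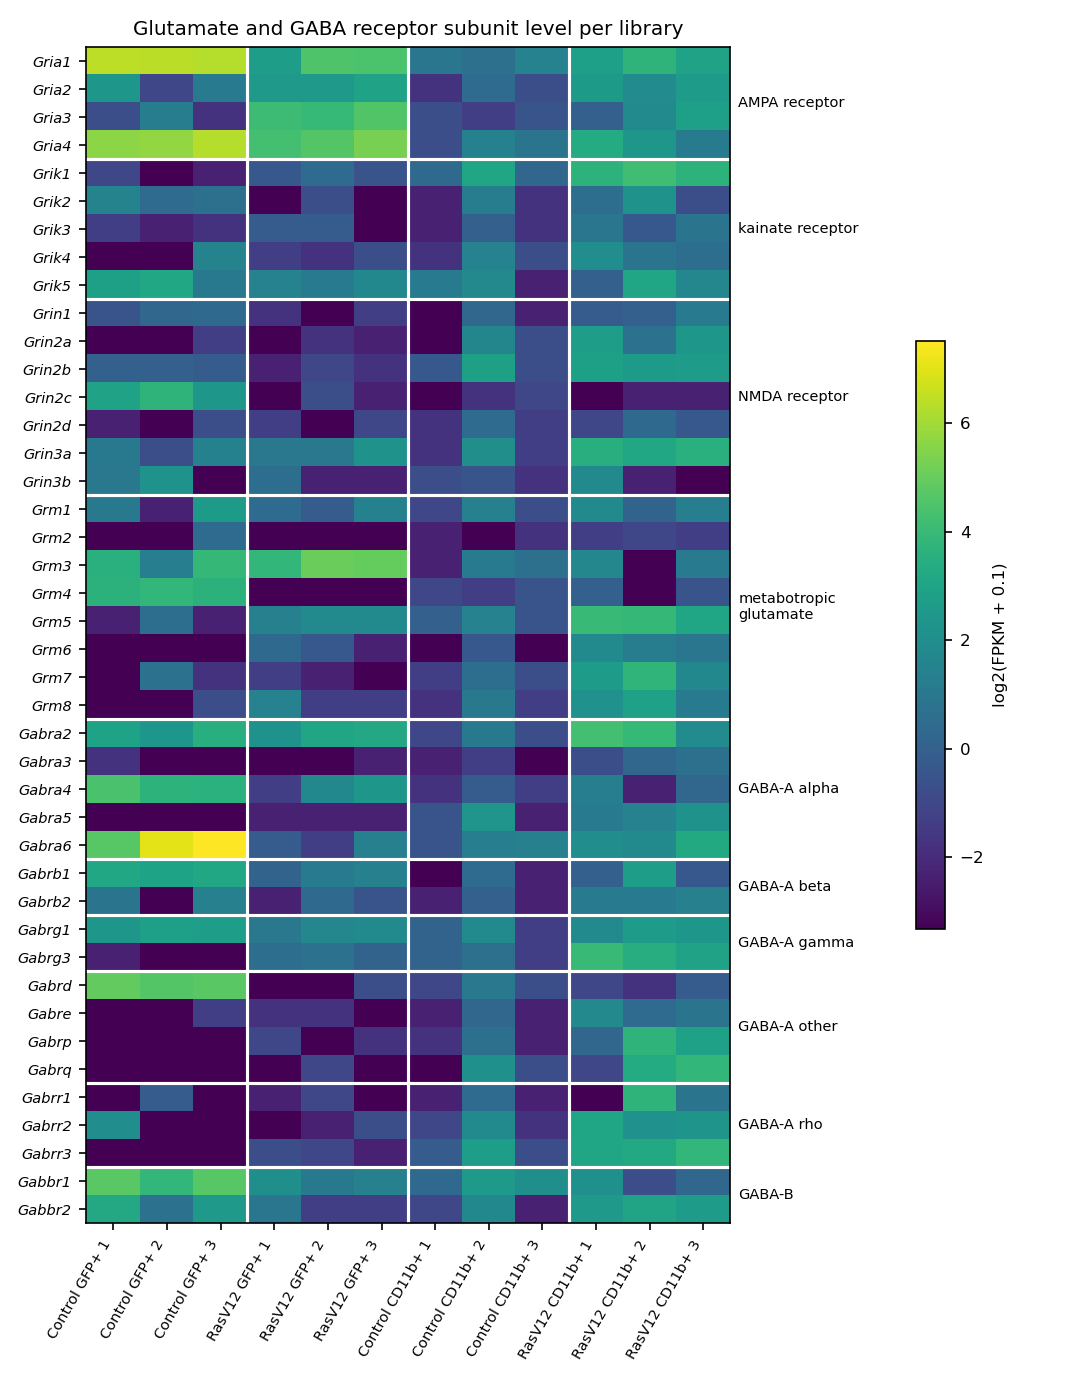
Level of 42 receptor subunit genes (rows, grouped by receptor class) in the 12 libraries (columns), coloured by log2(FPKM + 0.1). In control GFP+ libraries Gabra6, Gria1 and Gria4 had the highest mean levels, while in RasV12 GFP+ libraries Gria4, Grm3 and Gria3 did.

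All 45 members passed the filter on low values, which asked for 3 or more libraries with a normalized count of 10 or more. On the GFP+ libraries alone 36 would have passed, and the other 9 (Gabra3, Gabra5, Gabrp, Gabrq, Gabrr1, Gabrr2, Gabrr3, Grm2 and Grm6) passed only through CD11b+ libraries. In control GFP+ cells Gabra6 had the highest mean FPKM, 114 ± 80.1 (SD, n = 3), followed by Gria1 at 83.0 ± 3.46 and Gria4 at 61.3 ± 16.1. Gabra6 varied most among these, and its library values overlapped those of the other two. In RasV12 GFP+ cells the order was Gria4 at 27.7 ± 10.4, Grm3 at 26.2 ± 10.2 and Gria3 at 18.6 ± 4.21 FPKM. These 3 levels lay within each other's spread. Gabrp, Gabrq, Gabrr3 and Grm6 had no read in any control GFP+ library, and Grm2 had none in any RasV12 GFP+ library.

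RasV12 and control GFP+ cells differed in 12 of the 45 members, with 4 higher and 8 lower in RasV12. Among all genes tested, 6.79% were called in this comparison, 4.14% higher and 2.65% lower. The median log2 fold change of the members was -0.08, beside 0.56 over all genes. For the 924 olfactory and vomeronasal receptor genes tested it was 1.24, with 21 called higher and 0 lower. Values of the 2 groups did not overlap for 9 members that were higher and 16 that were lower in RasV12, where 17.2% and 10.9% of all genes were so placed. Among the 8 lower members were Gabra6, Gabrd and Gabbr1 of the GABA receptors and Gria1, Grin2c and Grm4 of the glutamate receptors. The 4 higher members were Gria3, Grm5, Grm6 and Gabrg3. None of the 12 changed sign under the 24 or 25 other settings tried for each, and Grm4 and Gabrd were called under all of them. Quantile normalization left 7 called members, 1 higher and 6 lower, edgeR 6 (3 and 3), and background subtraction 7 (1 and 6), where 3.5, 3.76 and 4.87% of all genes were called.

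**Figure D2:**
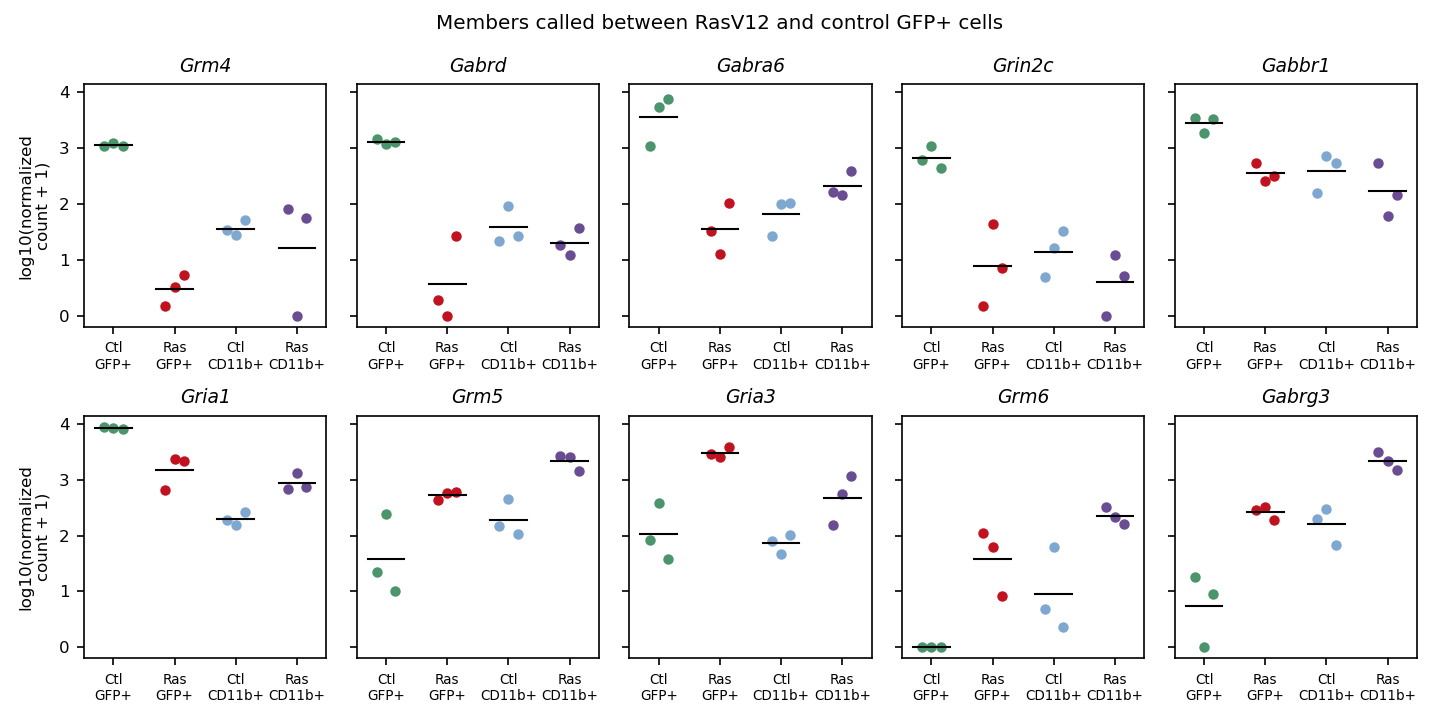
Normalized counts, as log10(count + 1), of 10 members called between RasV12 and control GFP+ cells, in all 4 groups. Each point is a library and each bar the mean of the 3 log values. For each of these genes the 3 control GFP+ points lie entirely above or entirely below the 3 RasV12 GFP+ points.

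Several cell type marker lists moved between the same GFP+ groups. The summed FPKM of 8 granule cell markers was 387 to 524 in control and 24.7 to 33.3 in RasV12 libraries, and 4 of the 8 fell. For 7 Purkinje cell markers it was 1689 to 1829 and 6.3 to 15.2, 6 of the 7 fell, and Ppp1r17 had no read in RasV12 GFP+ libraries. The 9 pan-neuron markers summed to 404 to 643 and 37.7 to 60 FPKM, and 4 of them fell. Astrocyte and Bergmann glia markers fell in 4 of 8 genes, with summed FPKM from 3939 to 5519 in control down to 338 to 697 in RasV12. Oligodendrocyte markers fell in 7 of 7, from 9005 to 13676 down to 39.3 to 158. Of the oligodendrocyte precursor markers 1 of 6 fell, and the sums were 186 to 335 and 53.8 to 177. Endothelial markers fell in 2 of 5, from 166 to 226 down to 10 to 28.6. Mitochondrial genes took 20.1 to 30.4% of the counts in control and 1.53 to 2.62% in RasV12 GFP+ libraries. The part of these cell types and of the mitochondrial share in the receptor results was not tested.

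AMPA receptors carry most fast excitation, and the GFP+ groups differed in the shares that Gria1 and Gria3 held among the 4 subunit genes. Gria1 (GRCm38 chr11:57011387-57330244, plus strand) encodes subunit GluA1. It had 8726, 8329 and 8032 normalized counts in control and 646, 2333 and 2170 in RasV12 GFP+ cells. Every control library was above every RasV12 library, and the log2 fold change was -2.49 ± 0.52 (adjusted p = 0.0114). The call was lost with quantile normalization (adjusted p = 0.151), with background subtracted (0.605), in a fit of the 6 GFP+ libraries (0.0538) and with edgeR (0.0591). Gria3 (chrX:41400854-41678601, plus strand), which encodes GluA3, had 82.6, 376 and 36.6 in control and 2819, 2537 and 3845 in RasV12 GFP+ cells. It was low in all control libraries and rose by 4.83 ± 0.91 (adjusted p = 0.00629), a call that was lost with quantile normalization (0.0925) and with background subtracted (0.338).

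Gria4, which encodes GluA4, had 5264, 5691 and 8378 in control and 2016, 2594 and 4131 in RasV12 GFP+ cells. These groups did not overlap either, but the log2 fold change of -1.18 ± 0.69 did not pass (adjusted p = 0.403). Gria2 encodes GluA2, the subunit that makes AMPA receptors impermeable to calcium once its message is edited. Its counts of 1387, 93 and 559 in control varied widely, and in RasV12 GFP+ cells they were 1456, 1470 and 1940. The log2 fold change of 1.94 ± 0.90 did not pass (adjusted p = 0.258).

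As shares of the summed FPKM of the 4 AMPA genes, Gria1 made up 60.8, 59.3 and 49.3% in control and 13.3, 33.6 and 23.4% in RasV12 GFP+ libraries. Gria3 made up 0.4, 1.6 and 0.1% in control and 35.4, 22.3 and 25.5% in RasV12. The share of Gria4 was 41.1% ± 7.3 (SD, n = 3) in control and 39.5% ± 3.5 in RasV12, a difference within the spread of the libraries. Gria2 held 1.8% ± 1.8 in control and 9.3% ± 1.9 in RasV12 GFP+ cells. The 4 genes together summed to 148 ± 12.1 FPKM in control and 69.7 ± 21.7 in RasV12. These shares are descriptions without a test.

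**Figure D3:**
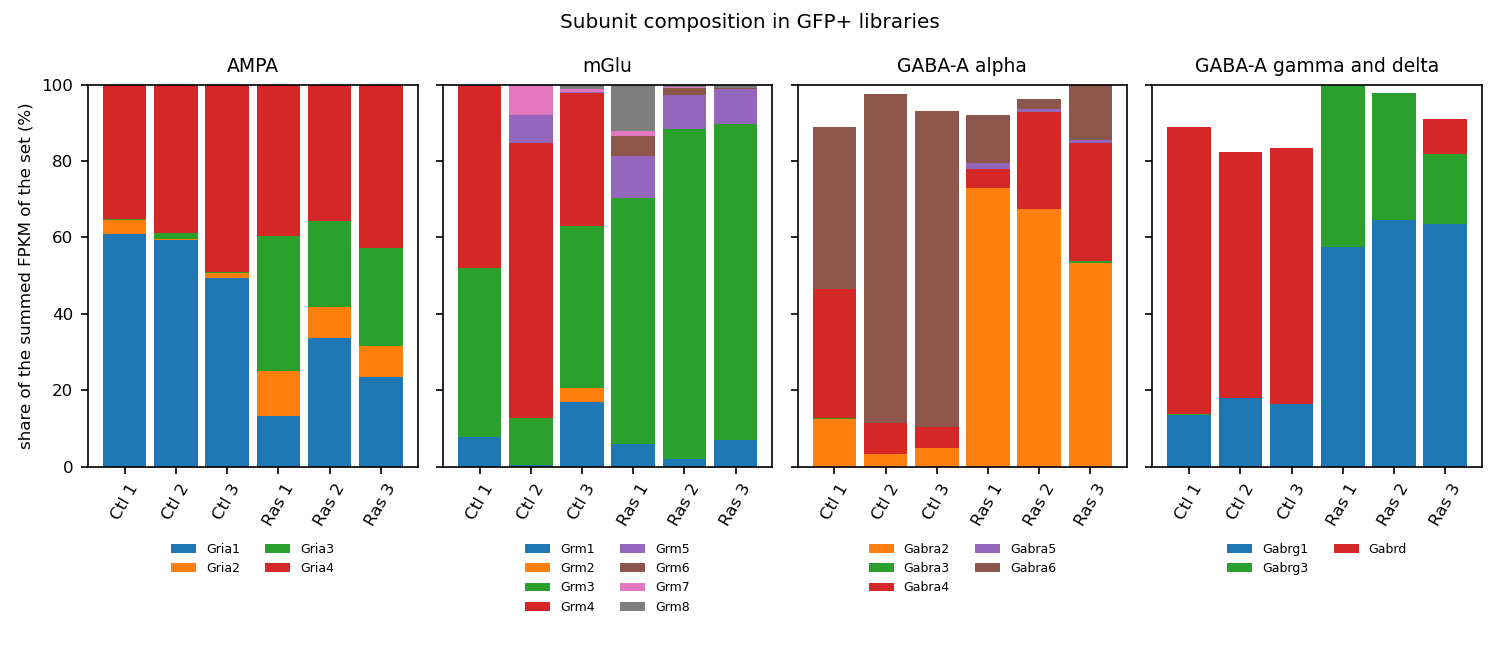
Share of each subunit gene in the summed FPKM of its set (percent) for AMPA, metabotropic glutamate (mGlu), GABA-A alpha and GABA-A gamma and delta genes, in the 3 control (Ctl) and 3 RasV12 (Ras) GFP+ libraries. Shares are of all genes of a set, and genes not drawn make up the rest of a bar to 100%. Gria3, Grm3, Gabra2, Gabrg1 and Gabrg3 take larger shares in the RasV12 bars, and Gria1, Grm4, Gabra6 and Gabrd in the control bars.

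Among the 7 NMDA receptor genes, which encode channels that need a coagonist beside glutamate, only Grin2c was called in GFP+ cells by limma. Grin2c (chr11:115249169-115267243, minus strand) had 622, 1109 and 448 in control and 0.5, 43.6 and 6.1 in RasV12 GFP+ cells. All RasV12 values were far below the lowest control value, and the log2 fold change was -6.44 ± 1.42 (adjusted p = 0.0152). The call was lost without control GFP+ 2 (adjusted p = 0.0615), RasV12 GFP+ 1 (0.0743) or RasV12 GFP+ 3 (0.0556) and with edgeR (0.0633). The obligatory subunit gene Grin1 had low counts, 89.7, 173 and 193 in control and 30.7, 5.2 and 48.3 in RasV12, with an adjusted p of 0.341, and 13.5% of its exon length is shared with the antisense gene Grin1os. The library kit used does not mark strand, so the reads of such pairs cannot be told apart. None of the 5 kainate receptor genes was called in GFP+ cells by limma, with 2 of them not overlapping between groups. Of the 2, 1 was higher and 1 lower in RasV12, where 17.2% and 10.9% of all genes were so placed. The lower one, Grik2, had 614, 298 and 328 in control and 1.4, 111 and 10 in RasV12. Its log2 fold change of -4.77 ± 1.44 had an adjusted p of 0.0653.

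Of the 8 metabotropic glutamate receptor genes 3 were called, with Grm4 lower and Grm5 and Grm6 higher in RasV12. Grm4 (chr17:27422387-27521403, minus strand) encodes an inhibitory receptor of nerve terminals. Its counts were 1089, 1255 and 1085 in control and 0.5, 2.3 and 4.3 in RasV12 GFP+ cells, where the 3 libraries together held 17 reads. Grm4 fell by 8.59 ± 1.45 on the log2 scale (adjusted p = 0.00323), the largest fold change of any member between these groups. Grm5 (chr7:87584168-88134907, plus strand), a receptor coupled to calcium release and also known in immature astrocytes, had 20.8, 237 and 9.2 in control and 434, 585 and 593 in RasV12. The lowest RasV12 library was above the highest control library, and the log2 fold change was 3.83 ± 1.01 (adjusted p = 0.0363). This call is fragile, since it was lost under 12 of 24 settings.

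The Grm5 call was lost without control GFP+ 1 (adjusted p = 0.10), control GFP+ 3 (0.11), RasV12 GFP+ 1 (0.0963), 2 (0.118) or 3 (0.111), or control CD11b+ 1 (0.0508). Grm6 (chr11:50850685-50866208, plus strand), the receptor of retinal ON bipolar cells, had no read in control and 110, 60.2 and 7.2 normalized counts in RasV12 GFP+ cells. By the mean of the RasV12 libraries, against a floor of 3 reads over the control group, it was at least 77.0-fold higher. The limma call had an adjusted p of 0.0379, and without RasV12 GFP+ 1 the limit was 44.0-fold. In RasV12 GFP+ 3 Grm6 held 20 reads. Relative to sensory receptor genes per kb it stood at 6.09, 4.69 and 0.726 in the RasV12 libraries. Grm6 passed the filter on low values only through CD11b+ libraries. The Grm6 call was lost without control GFP+ 1 (0.0835), 2 (0.0944) or 3 (0.08), without RasV12 GFP+ 1 (0.159) or 2 (0.135), and in the FPKM table (0.223). An antisense gene, Gm12660, shares 11.1% of the exon length of Grm6.

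Grm3, an inhibitory receptor known in astroglia, was the most abundant metabotropic glutamate receptor gene of RasV12 GFP+ cells. It had 585, 124 and 757 in control and 739, 1685 and 1578 in RasV12, and the groups overlapped (log2 fold change 1.72 ± 1.68, adjusted p = 0.694). In the summed FPKM of the 8 metabotropic genes, Grm3 held 44.4, 12.2 and 42.5% in control and 64.4, 86.2 and 82.7% in RasV12, without overlap. Grm4 held 51.4% ± 19.0 (SD, n = 3) in control and was listed at 0 FPKM in each RasV12 library. The summed level of this class was 26.9 ± 7.7 FPKM in control and 32.8 ± 8.9 in RasV12, a difference within the spread. Grm7 had 1.8, 159 and 15.3 counts in control and 30.7, 6.9 and 3.9 in RasV12 GFP+ cells and was not called.

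The GABA-A subunits known for granule cells were among the members with the largest fall. Gabra6 (chr11:42306437-42321072, minus strand), encoding alpha 6, had 1073, 5541 and 7572 in control and 32.5, 12 and 103 in RasV12 GFP+ cells. Control library 1 was several times lower than the other two, and still above every RasV12 library. The log2 fold change was -6.64 ± 1.01 (adjusted p = 0.00177), and the call was lost with background subtracted (0.0886). Gabrd (chr4:155384980-155398112, minus strand), encoding delta, the subunit of extrasynaptic GABA-A receptors, had 1426, 1183 and 1280 in control and 0.9, 0.0 and 25.4 in RasV12. It fell by 8.45 ± 1.25 (adjusted p = 0.00149).

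Many GABA-A genes lie in clusters. Gabrb2, a beta subunit gene (chr11:42419757-42629028, plus strand) had 181, 0.8 and 267 in control and 9.5, 131 and 62.6 in RasV12, with a log2 fold change of 0.00 ± 1.74. In the chromosome 5 cluster of Gabrg1, Gabra2, Gabra4 and Gabrb1, none of 4 genes was called by limma in this comparison, and all 4 log2 fold changes were below 0. Gabra4 had 2107, 1283 and 1222 in control and 28.0, 328 and 542 in RasV12 GFP+ cells (-3.11 ± 1.24, adjusted p = 0.175). Gabrb1, another beta subunit gene, had 2056, 1785 and 2055 in control and 227, 483 and 579 in RasV12, without overlap (-2.30 ± 1.16, adjusted p = 0.312).

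Gabra2 (chr5:70957597-71095849, minus strand), encoding alpha 2, showed nearly equal counts, 965, 646 and 1399 in control and 589, 1081 and 1155 in RasV12 GFP+ cells. Its log2 fold change was -0.08 ± 0.75. Gabra2 held 12.4, 3.3 and 5.0% of the summed FPKM of the 6 alpha genes in control and 73.0, 67.5 and 53.2% in RasV12. Gabra6 held 42.2, 86.1 and 82.6% in control and 12.7, 2.4 and 14.6% in RasV12. That sum was 146 ± 80.2 FPKM (SD, n = 3) in control and 12 ± 5.4 in RasV12. All control libraries were above all RasV12 libraries in this total.

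Gabrg3, encoding gamma 3, was the only GABA receptor member that rose in RasV12 GFP+ cells by limma. Gabrg3 (chr7:56716465-57387188, minus strand) had 17.2, 0.0 and 8.1 in control and 285, 320 and 191 in RasV12. Each RasV12 library was more than 10 times above the highest control library, and the log2 fold change was 5.57 ± 1.04 (adjusted p = 0.0061), with 0.0558 in the 6-library fit. Its neighbour Gabra5 was not called and held 1 read in control and 30 in RasV12 GFP+ libraries. Gabrg1, a gamma gene known in Bergmann glia, had 695, 901 and 862 in control and 244, 409 and 463 in RasV12 (-1.18 ± 0.81, adjusted p = 0.503). Among gamma and delta genes Gabrd held 68.8% ± 5.7 (SD, n = 3) of the summed FPKM in control, and Gabrg1 and Gabrg3 held 61.9% ± 3.8 and 31.3% ± 12.2 in RasV12.

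The GABA-B receptor needs both of its subunits, encoded by Gabbr1 and Gabbr2. Gabbr1 (chr17:37045966-37075067, plus strand) had 3461, 1867 and 3381 in control and 530, 261 and 319 in RasV12 GFP+ cells. These groups did not overlap, and the log2 fold change was -2.98 ± 0.81 (adjusted p = 0.0421). The Gabbr1 call was lost under 12 of 25 settings, among them the fits without control GFP+ 1 (0.115), 2 (0.0642) or 3 (0.109), RasV12 GFP+ 1 (0.0825), 2 (0.148) or 3 (0.121), or control CD11b+ 3 (0.0597). Gabbr2 had 1033, 177 and 633 in control and 206, 28.1 and 27.9 in RasV12, with overlap (-3.13 ± 1.19, adjusted p = 0.152).

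Promoter sequences are shown for 3 of the 12 genes called in GFP+ cells, to set 2 that fell (Gabra6 and Grin2c) beside 1 that rose (Gabrg3). They are the 250 bases before the RefSeq gene start in GRCm38.p6, 5′ to 3′ on the strand of the gene. RefSeq promoter entries were matched for 32 of the 45 members and for 5 of the 12. Capitals mark the half-site of nuclear factor I (TTGGC), a factor family known for its role at Gabra6, and the GC box (GGGCGG), both searched on both strands.
Gabra6, chr11:42321073-42321322, minus strand: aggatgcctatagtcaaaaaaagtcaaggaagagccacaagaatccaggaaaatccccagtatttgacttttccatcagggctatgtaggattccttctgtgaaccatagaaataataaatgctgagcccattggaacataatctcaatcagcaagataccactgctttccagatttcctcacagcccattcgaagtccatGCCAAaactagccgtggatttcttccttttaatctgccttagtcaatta
Grin2c, chr11:115267244-115267493, minus strand: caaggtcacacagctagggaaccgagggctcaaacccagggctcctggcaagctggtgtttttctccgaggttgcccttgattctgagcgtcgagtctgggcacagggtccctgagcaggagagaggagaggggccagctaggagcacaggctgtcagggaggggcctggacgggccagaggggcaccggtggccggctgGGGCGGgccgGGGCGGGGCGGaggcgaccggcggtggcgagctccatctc
Gabrg3, chr7:57387216-57387465, minus strand: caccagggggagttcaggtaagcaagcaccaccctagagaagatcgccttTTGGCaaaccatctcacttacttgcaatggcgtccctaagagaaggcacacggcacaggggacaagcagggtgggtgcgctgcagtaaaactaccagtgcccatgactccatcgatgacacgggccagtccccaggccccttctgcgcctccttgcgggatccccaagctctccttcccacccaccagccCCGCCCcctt

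The Gabra6 window held 1 nuclear factor I half-site, beginning 49 bases before the start, and no GC box, with 40.8% G and C. The window of Grin2c held 3 GC boxes, beginning 50, 40 and 35 bases before the start, the last 2 overlapping by a base, and 68.8% G and C. For Gabrg3 there was 1 half-site at 200 bases and 1 GC box at 10 bases before the start. Of the called genes whose windows are not shown, Grm6, which rose, held 2 half-sites and 0 GC boxes. Gabbr1, which fell, held 0 half-sites and 2 GC boxes. Across all 32851 RefSeq windows of this length, 41.5% held the half-site and 32.7% the GC box. Among 39 windows of the members, 17 held the half-site and 18 the GC box. Neither AP-1 (TGANTCA, in 6.7% of windows) nor a TATA box (TATAAA, 12.4%) was matched in the 3 windows shown. A match is a run of letters and not a measured binding site.

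**Figure D4:**
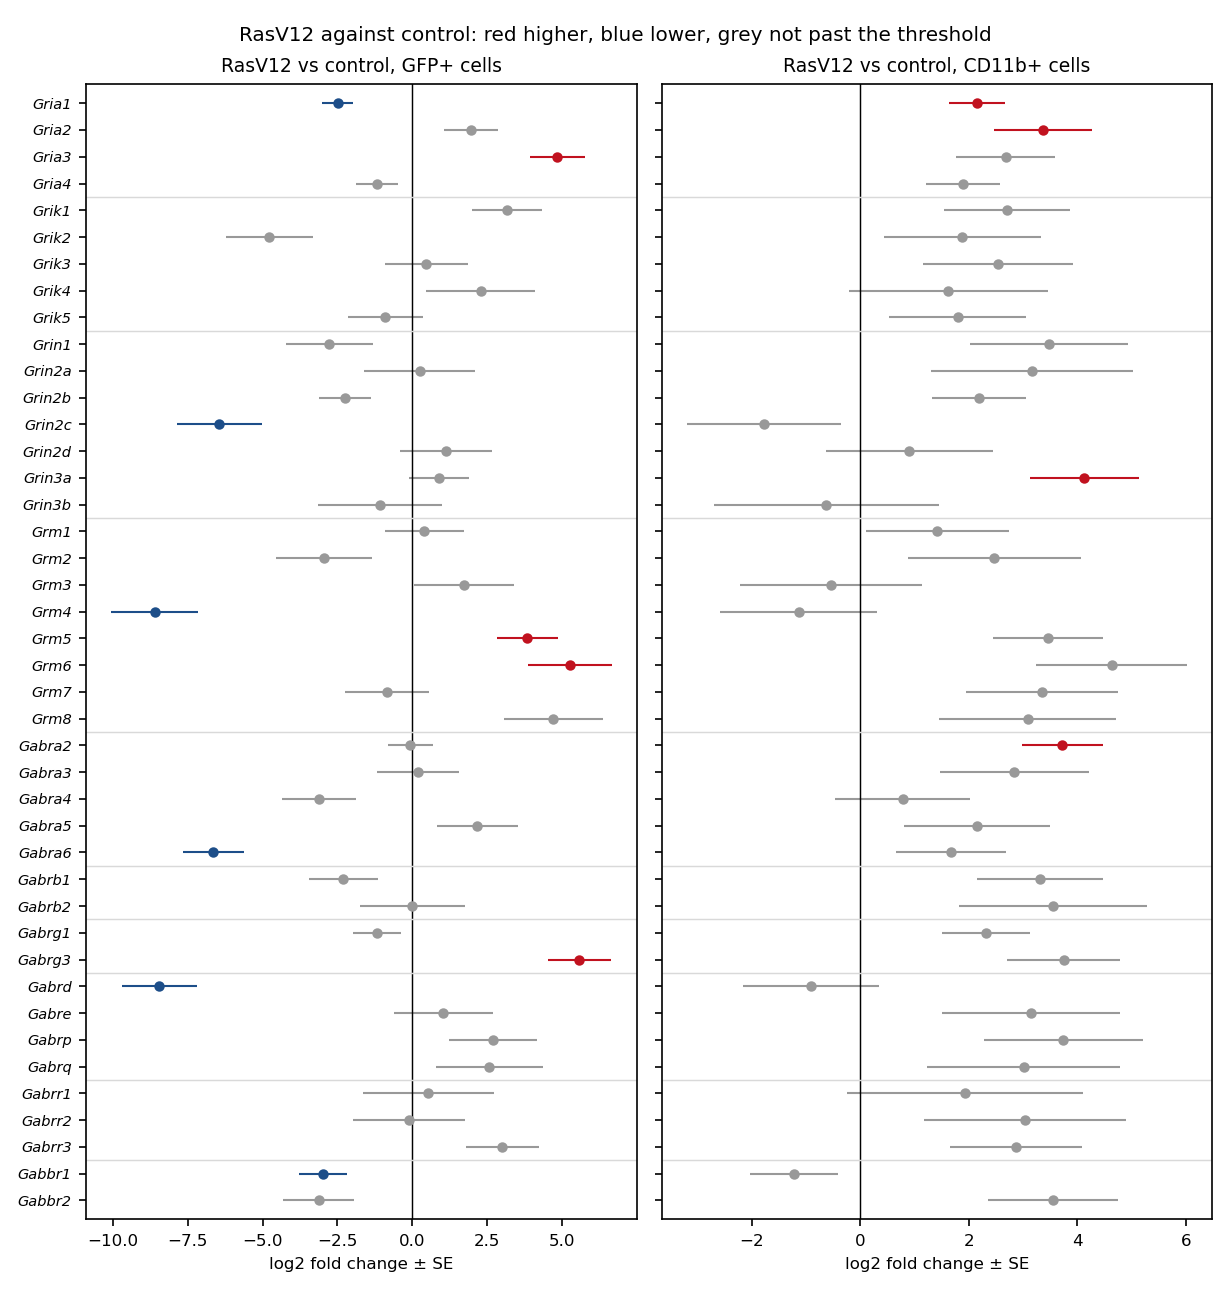
Log2 fold change ± SE of 42 members between RasV12 and control, in GFP+ cells (left) and CD11b+ cells (right), from the limma fit of 12 libraries. Red and blue points are the members called higher and lower (4 and 6 on the left, 4 and 0 on the right), grey points did not pass, and the scales of the panels differ.

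In lists of other synapse genes, most members did not pass between the GFP+ groups. Of 12 auxiliary subunits of AMPA and kainate receptors 1 fell and none rose by limma, and it was Cacng2, which encodes stargazin, with 1054, 1123 and 889 in control and 4.1, 7.5 and 2.5 in RasV12 (-7.58 ± 1.81, adjusted p = 0.0228). Among 15 glutamate receptor scaffold genes 2 fell, Shank1 (-8.21 ± 1) and Shank2 (-6.24 ± 1.19), and Grip1, whose protein binds AMPA receptor tails, rose (4.99 ± 1.36). Of 5 genes for glutamate synthesis and vesicle loading 1 fell, the vesicular transporter gene Slc17a7 (-5.53 ± 0.99). Both cerebellins of parallel fibres among 4 ligand genes of delta receptors fell, Cbln3 (-9.34 ± 1.81) and Cbln1 (-8.12 ± 1.76). Median log2 fold changes were -0.12, -0.43, 1.86 and -3.08 for these 4 lists in the order given.

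Genes that clear glutamate fell in 3 of 5 cases in RasV12 GFP+ cells, and the list's median was -2.63. Slc1a6, the transporter gene of Purkinje cells, had 583, 205 and 409 in control and 0.9, 4.0 and 1.1 in RasV12 (-7.08 ± 1.16, adjusted p = 0.00273). Glul encodes glutamine synthetase, the enzyme of astroglia that turns glutamate into glutamine. It had 14358, 9572 and 10045 in control and 894, 2753 and 1958 in RasV12 (-2.72 ± 0.40, adjusted p = 0.00149). Slc1a2, the third that fell, had a change of -2.63 ± 0.69. Of 8 genes for GABA synthesis, loading, uptake and breakdown, with a median of -3.17, 1 fell, the GABA transaminase gene Abat (-3.38 ± 0.78). Among 10 GABA receptor scaffold and auxiliary genes, with a median of -0.57, Kctd8, an auxiliary subunit of GABA-B receptors, fell (-6.32 ± 1.57).

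In CD11b+ phagocytes the members were at levels close to those of olfactory and vomeronasal receptor genes. The median count per kb of the 45 members was 1.19, 0.881 and 1.18 times that of the sensory receptor genes in control CD11b+ libraries 1, 2 and 3, and 0.732, 0.669 and 0.875 times in RasV12 CD11b+ libraries. In GFP+ cells the same ratio was 36.8, 13.2 and 12.4 in control and 2.58, 3.53 and 3.93 in RasV12. The members' median count per kb was 31.5, 17.9 and 24.7 in control and 8.57, 8.35 and 7.19 in RasV12 GFP+ libraries. Sensory receptor genes stood at 0.856, 1.35 and 1.99 and at 3.32, 2.37 and 1.83 per kb, and these overlapped. Of the 45 members, 26, 24 and 24 exceeded 10 times the sensory receptor level in control GFP+ libraries, and 10, 14 and 15 did so in RasV12 GFP+ libraries. Among CD11b+ libraries 1 member did so, Gabbr1 in control library 3, at 14.7 times.

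**Figure D5:**
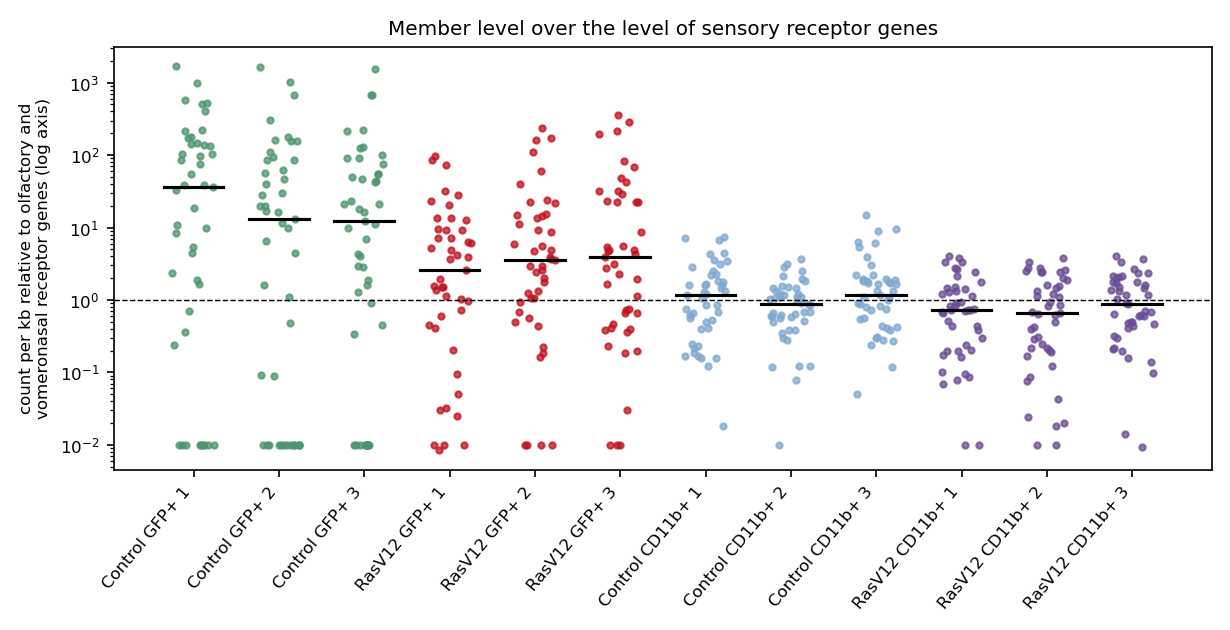
Normalized count per kb of each of the 45 members divided by that of olfactory and vomeronasal receptor genes in the same library, on a log axis. Points are members, bars are medians, the dashed line marks equal levels, and members without reads are drawn at 0.01. Medians lie between 12.4 and 36.8 for control GFP+, between 2.58 and 3.93 for RasV12 GFP+ and between 0.669 and 1.19 for CD11b+ libraries.

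Between RasV12 and control CD11b+ cells 4 members were higher and 0 lower by limma, where 5.36% of all genes were called, 2.97% higher and 2.39% lower. The median log2 fold change was 2.53 for the members, 0.74 over all genes and 2.58 for the 924 olfactory and vomeronasal receptor genes tested, of which 51 were called higher and 1 lower. Values did not overlap for 21 members that were higher in RasV12, where 19.0% of all genes were so placed. Mitochondrial genes took 1.32, 2.54 and 0.63% of the counts in control and 17.7, 14.4 and 13.3% in RasV12 CD11b+ libraries. Replicates correlated at 0.657 to 0.887 in control and at 0.512 to 0.537 in RasV12 CD11b+ cells. Unspecific signal, read depth and mitochondrial share thus moved with this comparison, and their part in the members' values was not tested.

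The 4 called members were Gria1, Gria2, Grin3a and Gabra2. Gria1 had 185, 154 and 267 in control and 686, 1313 and 750 in RasV12 CD11b+ cells (2.15 ± 0.52, adjusted p = 0.033). For Gria2 the counts were 49.4, 346 and 122 in control and 1542, 942 and 1607 in RasV12 (3.36 ± 0.90, adjusted p = 0.0461). Grin3a, which encodes an NMDA receptor subunit that binds glycine, had 34.5, 828 and 62.5 in control and 2317, 1817 and 2383 in RasV12 (4.13 ± 1.01, adjusted p = 0.0344). Gabra2 had 55.7, 252 and 65.1 in control and 2429, 1922 and 463 in RasV12 (3.72 ± 0.75, adjusted p = 0.0166). In each of them the normalized counts of the groups did not overlap, and for Gria2, Grin3a and Gabra2 control CD11b+ 2 was the highest control library. Relative to sensory receptor genes per kb, Gria1 stood at 6.662, 0.6827 and 9.401 in control and 1.456, 2.4 and 2.128 in RasV12. Gria2 stood at 0.6915, 0.5951 and 1.675 and at 1.271, 0.6691 and 1.773. Grin3a stood at 0.6117, 1.804 and 1.083 and at 2.42, 1.635 and 3.331. Gabra2 stood at 1.587, 0.8808 and 1.813 and at 4.075, 2.779 and 1.04. On this scale the groups overlapped for all 4.

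The calls of Gabra2, Gria1, Grin3a and Gria2 were lost on leaving out any of 4, 6, 7 and 9 single libraries. No member was called in the CD11b+ comparison without control CD11b+ 1 or 3 or without RasV12 CD11b+ 1 or 2, with 11, 11, 18 and 13 members at an unadjusted p under 0.05 in the limma fits. Calls over all genes fell too under these settings, to 1.05, 1.22, 2.99 and 2.78%. The count was also 0 with edgeR, with 8 members at an unadjusted p under 0.05, and in a limma fit of the 6 CD11b+ libraries, with 19. Of all genes edgeR called 1.45% and the 6-library fit 0, so these counts say nothing particular about the members. With DESeq2 6 members and 8.4% of the genes it tested were called. Without control CD11b+ 2, the control library with the most sensory receptor signal, 16 members were called, while the share over all genes rose to 19.4%. Without RasV12 CD11b+ 3 or RasV12 GFP+ 2 there were 2, beside 6.28 and 3.36% of all genes. After background subtraction 3 were called, 2 higher and 1 lower, beside 13.7% of all genes.

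Among the members with the highest mean FPKM in control CD11b+ cells were Gabbr1 at 3.63 ± 2.24 (SD, n = 3) and Grik1 at 3.53 ± 4.13. In RasV12 CD11b+ cells Grik1 at 14.6 ± 2.97 and Grm5 at 12.9 ± 3.99 were among them. In both groups these levels lay within each other's spread. For comparison, the phagocyte marker C1qa, a complement gene, had a mean of 2566 FPKM in control and 610 in RasV12 CD11b+ libraries. Gabbr1 had 159, 726 and 536 normalized counts in control and 544, 60.9 and 143 in RasV12 CD11b+ cells and was not called (-1.23 ± 0.81, adjusted p = 0.337). Of the glutamate uptake list, the transporter genes Slc1a6 (4.68 ± 1.16) and Slc1a1 (4.34 ± 1.09) were higher in RasV12 CD11b+ cells, while Glul was lower (-1.59 ± 0.40).

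Within the control mice, CD11b+ and GFP+ cells differed in 17 members, 6 higher and 11 lower in CD11b+ cells, beside 26.2% of all genes called, 19.3% higher and 6.91% lower. As 4 of the 6 higher members passed the filter only through CD11b+ libraries, the count is no test of those 4. Values did not overlap for 7 members that were higher and 14 that were lower in CD11b+ cells, where 32.9% and 12.7% of all genes were so placed. The median log2 fold change was -0.55 for the members, 1.80 over all genes and 3.65 for the sensory receptor genes. The 11 lower members were Gria1 (-5.40 ± 0.52), Gria4 (-5.54 ± 0.69), Grin2c (-5.63 ± 1.42), Grm4 (-4.97 ± 1.45), Gabra2 (-3.28 ± 0.75), Gabra4 (-5.23 ± 1.24), Gabra6 (-5.76 ± 1.01), Gabrb1 (-5.70 ± 1.16), Gabrg1 (-2.69 ± 0.81), Gabrd (-5.08 ± 1.25) and Gabbr1 (-2.82 ± 0.81). All 4 genes of the chromosome 5 cluster were among them. Gria1, Gria4, Grin2c, Gabra2, Gabra4, Gabra6, Gabrb1 and Gabrd were called under every other setting tried. The other 3 calls rested on single libraries. That of Grm4 was lost without control GFP+ 1, 2 or 3 or control CD11b+ 1 or 2 (adjusted p 0.0535 to 0.0664). Gabrg1 lost its call without any of the control GFP+ libraries or control CD11b+ 1 or 3 (0.052 to 0.0924), and Gabbr1 without control GFP+ 1 or 3 or control CD11b+ 1 (0.0608 to 0.0788).

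Of the 6 members higher in control CD11b+ than in control GFP+ cells, 4 (Gabra5, Gabrp, Gabrq and Gabrr3) passed the filter on low values only through CD11b+ libraries. Low levels in GFP+ cells were thus set by the filter for these 4, and their values and calls are a description and not a test. Gabrr3, a rho subunit gene, had no read there and 21.2, 177 and 14.8 counts in CD11b+ cells, at least 92.5-fold higher against 3 reads. Gabrq, encoding theta, was at least 191-fold higher (3.9, 388 and 46.5 in CD11b+ cells), and Gabrp, encoding pi, at least 44.4-fold (11.8, 83.8 and 6.5). Gabra5 held 1 read in GFP+ cells, and its ratio was 192 with a 95% counting interval of 34.0 to 7606 (29.8, 241 and 3.9 counts in CD11b+ cells). Gabrg3 had 198, 301 and 66.4 in CD11b+ cells (4.86 ± 1.04) and Grik1, a kainate subunit gene, 132, 931 and 124 (4.56 ± 1.16). Control CD11b+ 2 was the highest library for each of the 6. Without it the limits were 23.5-fold for Gabrr3, 32.9-fold for Gabrq and 11.9-fold for Gabrp, and the ratio of Gabra5 was 51.4 (8.78 to 2072). Without it 15 members were called, 2 higher and 13 lower, beside 19% of all genes, and the calls of Gabra5 (adjusted p = 0.0525), Gabrp (0.142), Gabrq (0.145) and Grik1 (0.0563) were lost. Gabra5 also lost its call without control GFP+ 2 (0.0563), Gabrq without any of 4 other libraries (control CD11b+ 3 and the control GFP+ libraries, 0.0736 to 0.0821) and Gabrp without any of 6 others (control CD11b+ 1 and 3, the control GFP+ libraries and RasV12 GFP+ 3, 0.051 to 0.0974).

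Within tumors, CD11b+ and GFP+ cells differed in 21 members, 18 higher and 3 lower in CD11b+ cells, beside 40.1% of all genes called, 29.8% higher and 10.2% lower. As 7 of the 18 higher members passed the filter only through CD11b+ libraries, the count is no test of those 7. Values did not overlap for 24 members that were higher and 3 that were lower, where 36% and 14.8% of all genes were so placed. The sensory receptor genes were called higher in 540 of 924 cases in the same comparison, with a median of 4.85 beside 2.55 for the members and 1.79 over all genes. The 3 lower members were Grm3 (-5.58 ± 1.68), Gria3 (-2.71 ± 0.91) and Gria4 (-2.47 ± 0.69), the same 3 that led RasV12 GFP+ cells by FPKM. In RasV12 CD11b+ cells Grm3 had 156, 0.0 and 113 counts, Gria3 156, 554 and 1138, and Gria4 1047, 543 and 223. Each of these was below the lowest RasV12 GFP+ library of the gene. The Gria4 call was lost without RasV12 GFP+ 3 (adjusted p = 0.0589), and that of Grm3 without RasV12 GFP+ 2 (0.059) or 3 (0.0595). The Gria3 call was lost without RasV12 CD11b+ 1 (0.11) or RasV12 GFP+ 1 (0.0726), 2 (0.0695) or 3 (0.0997).

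The 18 members higher in RasV12 CD11b+ than in RasV12 GFP+ cells were 12 GABA and 6 glutamate receptor genes. Of the 18, 7 (Gabra3, Gabra5, Gabrp, Gabrq, Gabrr2, Gabrr3 and Grm2) passed the filter on low values only through CD11b+ libraries. Low levels in GFP+ cells were thus set by the filter for these 7, and their values and calls are a description and not a test. Grin2a, encoding an NMDA receptor subunit, had 1970, 465 and 1544 counts in RasV12 CD11b+ cells (6.48 ± 1.86). Gabrq (5.94 ± 1.78), Grm7 (5.90 ± 1.40), Gabrp (5.39 ± 1.47), Gabrr2 (5.38 ± 1.86), Gabrr3 (5.17 ± 1.21), Grin2b (5.06 ± 0.87), Gabra5 (4.81 ± 1.35) and Gabre (4.63 ± 1.64) were among the 18, as were Grik2 (4.51 ± 1.44), Gabra3 (4.42 ± 1.37), Grik1 (4.09 ± 1.16), Gabbr2 (3.71 ± 1.19) and Gabrg3 (3.04 ± 1.04), and Grm2, without a read in the GFP+ libraries, at least 66.1-fold higher. Calls were lost on leaving out any of 5 single libraries for Gabre (adjusted p up to 0.158), Gabrr2 (0.126) and Gabrg3 (0.101), and any of 4 for Gabrq (0.0699) and Grm2 (0.0683). They were lost without RasV12 CD11b+ 2, RasV12 GFP+ 1 or RasV12 GFP+ 3 for Grik2 (up to 0.104), and without RasV12 CD11b+ 2, RasV12 GFP+ 2 or RasV12 GFP+ 3 for Gabbr2 (up to 0.0891). Grin2a lost its call without RasV12 GFP+ 1 (0.068), and Gabrp (0.059) and Gabra3 (0.0905) without RasV12 GFP+ 2. The single libraries for Gabre were RasV12 CD11b+ 1, 2 and 3 and RasV12 GFP+ 2 and 3, for Gabrr2 RasV12 CD11b+ 1, 2 and 3 and RasV12 GFP+ 1 and 2, and for Gabrg3 RasV12 CD11b+ 1 and 2 and all RasV12 GFP+ libraries. Those for Gabrq were RasV12 CD11b+ 2 and 3 and RasV12 GFP+ 1 and 3, and those for Grm2 RasV12 CD11b+ 2 and all RasV12 GFP+ libraries. Grin2b was called under every other setting, and with background subtracted the sign turned for Grik2 (-2.11). Without RasV12 GFP+ 2 the count was 11, and without RasV12 GFP+ 3 it was 13, beside 28.7 and 27.4% of all genes. Without RasV12 CD11b+ 1 and 2 and control CD11b+ 2, 7 members were called, 6 higher and 1 lower, beside 22.6% of all genes (11.3% higher and 11.4% lower). With background subtracted 11 were called, 3 higher and 8 lower, and all genes turned the same way, with 12.6% higher and 27% lower.

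The effect of RasV12 in CD11b+ cells was set against that in GFP+ cells by the interaction term of the same limma fit. In 6 of the 45 members the term (CD11b+ minus GFP+) passed, and it was above 0 in all of them. Of all genes 4.4% were called, 2.06% higher and 2.34% lower. Among the 6 members were Gria1, Gabra6, Gabrd and Gabbr2. A term above 0 does not by itself mean a rise in CD11b+ cells. The median of the term was 2.93 over the members, 0.07 over all genes and 1.17 over the 924 sensory receptor genes.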

How the data were processed

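RNA of 12 libraries was extracted with Sepazol, amplified with the SMARTer Universal Low Input RNA Kit and made into Nextera XT libraries, per the labels' protocols. Nextera XT does not mark strand. The submitters' processing notes name HISAT2 2.1.0, Subread 1.6.2, DESeq2 1.20.0, featureCounts, bcl2fastq 2.17.1.14 and the build GRCm38.p6. Normalized counts (a signal, gene counts divided by size factors) and FPKM were deposited by the authors in separate tables of 54547 genes. Whole reads were recovered from the steps of the deposited normalized counts. Of the values, 100% lay within 0.05 normalized counts of a whole multiple of the step. A read was worth only 0.358 normalized counts in RasV12 GFP+ 3, so the tolerance is a larger part of a read there. All columns belonged to a sample (0 others).

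The test covered the 29835 genes that reached a normalized count of 10 in 3 or more libraries. Values were tested as log2(normalized count + 1) with limma 3.58.1 in R 4.3.3, in a single fit of 4 groups over 12 libraries with Benjamini-Hochberg adjustment and a threshold of 0.05, two-sided. Alternatives were edgeR 4.0.16 and DESeq2 1.42.0 on recovered reads, other scalings, pseudocounts and filters, background subtraction, a replicate block and leaving out libraries. The FPKM table was another, with the same scaling of libraries but other rounding and another pseudocount. The fit was also run on simulated counts, for the RasV12 against control comparisons only. Changes were set only in genes of higher mean count. That run does not bear on members of low count or on the other comparisons. Tables and plots used Python 3.11.15, pandas 2.3.3, numpy 2.4.6, scipy 1.17.1 and matplotlib 3.10.9. Gene models came from GENCODE, matched for 53706 gene IDs (98.5%), and promoters from RefSeq.

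The members and lists were chosen with earlier results of these data known. Some members and list genes are counted but not reported by name here. Other members were named where they passed in any comparison or were among the 3 highest by mean FPKM of a group, and others to complete a class. In synapse lists, up to 2 called genes with the largest fold change per comparison were named, and further ones to complete a count, chosen after their values were seen. Intervals and floors (3 reads over a group) cover counting error only. Cacng7 and Cacng8, whose symbols stand on more than 1 row, were left out.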

Additional observations from a re-analysis of the deposited data

Results flagged for a closer look

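For 6 members the effect of RasV12 in CD11b+ cells differed from that in GFP+ cells, by the interaction term of the limma fit (CD11b+ minus GFP+, adjusted p), where 4.4% of all genes were called. In all 6 the term was above 0. The comparisons in GFP+ and CD11b+ cells share no library, and the signal of sensory receptor genes was highest in RasV12 CD11b+ libraries, whose part was not tested.

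Gria1 had a difference of 4.64 ± 0.74 (adjusted p = 0.0043), being lower in RasV12 GFP+ cells and higher in RasV12 CD11b+ cells by normalized count. Relative to sensory receptor genes, Gria1 overlapped between the CD11b+ groups. With background subtracted the adjusted p was 0.132. Gabra6 had 8.32 ± 1.43 (0.00663, and 0.282 with background subtracted). Its counts were 25.9, 98.8 and 105 in control and 160, 144 and 394 in RasV12 CD11b+ cells, where it was not called.

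Gabrd had a difference of 7.54 ± 1.76 (adjusted p = 0.029). Its counts were 21.2, 92.8 and 26.0 in control and 17.8, 11.1 and 36.0 in RasV12 CD11b+ cells. Those groups overlapped and Gabrd was not called between them, while it fell in GFP+ cells. The call of the term was lost without control CD11b+ 1 or 3, any control GFP+ library, or RasV12 GFP+ 1 or 2 (0.0574 to 0.0816). It was also lost with edgeR (0.0975), with quantile normalization (0.113) and with background subtracted (0.0587). Gabbr2 had 6.68 ± 1.68 (adjusted p = 0.0396), although it was called in neither genotype comparison alone. That call was lost without any of 9 libraries, control CD11b+ 1 and 3, control GFP+ 1 and 3, RasV12 GFP+ 2 and 3 and all RasV12 CD11b+ libraries (0.0518 to 0.104). It was also lost with edgeR (0.113), with background subtracted (0.064), without a filter on low values (0.0606) and with the replicate block (0.0799).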

How the results depend on the processing

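Counts of called members moved by more than 1.5 times under some settings, and the cause was not tested. In GFP+ cells (12) they were 7 with quantile normalization, 6 with edgeR and 7 with background subtracted, and 8 to 14 on leaving out each library. Of all genes 6.79% were called in the main fit, 3.5, 3.76 and 4.87% under these settings in turn, and 3.41 to 8.94% by library. In CD11b+ cells (4) the member counts were 8 with a pseudocount of 5, 1 without a filter, 7 in the FPKM table and 2 with upper-quartile scaling. They were 0 in the 6-library limma fit (19 at an unadjusted p under 0.05) and 0 with edgeR (8 at an unadjusted p under 0.05). DESeq2 called 6, and leaving out each library gave 0 to 16. Of all genes 5.36% were called in the main fit, and 11.9, 2.38, 8.74, 6.29, 0, 1.45 and 8.4% under these settings in turn. By library the share over all genes was 1.05 to 19.4%. Between CD11b+ and GFP+ control cells (17) the member counts were 11 with quantile normalization and 12 to 18 by library. Of all genes 26.2% were called in the main fit, 13.8% with quantile normalization and 17.5 to 31.9% by library. Between CD11b+ and GFP+ RasV12 cells (21) the member counts were 11 with quantile normalization, 7 with edgeR and 11 with background subtracted. They were 7 without control CD11b+ 2 and RasV12 CD11b+ 1 and 2, and 11 to 23 by library. Of all genes 40.1% were called in the main fit, and 31.1, 15.7, 39.6 and 22.6% under these settings in turn. By library the share over all genes was 27.4 to 44.9%. For the difference of effects (6) the member counts were 11 with DESeq2, 10 without those 3 libraries and 4 to 15 by library. Of all genes 4.4% were called in the main fit, 11.0 and 10.6% under these settings in turn, and 1.97 to 8.58% by library. With background subtracted, Grik2 (-2.11) reversed between CD11b+ and GFP+ RasV12 cells. Quantile normalization moved the all-gene median log2 fold change from 0.56 to -0.12 in GFP+ cells and from 0.74 to 0.13 in CD11b+ cells. Shares within receptor classes were rerun only from counts per kb and on leaving out 1 of 3 libraries. Counts per kb carry nearly the same values as FPKM, and leaving out 1 of 3 libraries cannot move a mean by 1 SD. The stability of the shares was therefore not tested. With the replicate block the member counts were 12, 3, 17, 19 and 5, in the order above. They stood beside 6.22, 4.06, 22.1, 36.4 and 2.66% of all genes. Same-numbered libraries correlated between -0.029 and 0.09 in their deviations over 12 pairs. Some of these pairs set control against RasV12 libraries, and deviations from means of 3 libraries are noisy. Whether same-numbered libraries came from the same mice was therefore not decided. The median SE of 1.37 in GFP+ cells and the few reads of RasV12 CD11b+ 1 and 2 limit what could be called.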
